A study of Homo sapiens with 3 samples.

Results

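A set of 9 genes of the secretory pathway was examined for RNA editing: SRP14 and SRP9 of the signal recognition particle, SSR2 of the translocon-associated protein complex, the chaperones HSPA5 and HSP90B1 of the endoplasmic reticulum (ER), the lectin chaperones CALR and CANX, and the disulfide isomerases P4HB and PDIA3. A site belonged to the set when the deposited site list named it after 1 of these 9 genes. The rule found 195 positions of 16820 in all, across 3 site lists. The genes were chosen by editing levels and edited reads in these same lists, so those levels and any calls made on them are given as descriptions and support nothing further.

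The cells were THP-1, a human monocytic leukemia line, and the assay was HyperTRIBE. HyperTRIBE joins a protein that binds RNA to a hyperactive catalytic domain of ADAR, which turns adenosine into inosine. RNA that the fusion comes close to then shows A-to-G changes in sequencing reads. There were 3 libraries, 1 in each of 3 groups, all grown for 7 days after transduction with a pGK-GFP retrovirus made in 293T cells, a human kidney line: DDX41 fused to the domain (DDX41-ADARcd), the domain without a partner (ADARcd alone) and the virus with no transgene (empty vector). DDX41 is a DEAD-box RNA helicase mutated in myeloid neoplasms. The labels state neither sorting of GFP-positive cells nor which ADAR gene gave the domain, and no group had a replicate, so each comparison sets the reads of one library against those of another.

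Proteins that leave the cell or enter membranes are recognised by the signal recognition particle as their signal peptide emerges from the ribosome. The particle holds the ribosome at the ER, the chain passes through the Sec61 channel with the translocon-associated complex beside it, and chaperones and disulfide isomerases fold it in the lumen. Monocytic cells use this route for their granule and lysosomal enzymes, cytokines and surface receptors.

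Among the member sites, 5 had 5 or more edited reads in a transduced library. They are shown because they hold the most edited reads and every call made on a member. Their surroundings on the mRNA are shown with the edited adenosine in capitals and 10 bases on either side, 5′ to 3′, taken from GENCODE 29 transcripts (GRCh38, all 3 genes on the minus strand) and written with T for U. Each of the 5 adenosines is followed by G, and in 4 of the 5 another A precedes it.
SRP14, chromosome 15, position 40036482, coding exon: aaacctccttAgagctaacat
SRP14, chromosome 15, position 40037004, coding exon: gctccaaggaAgtgaataagt
SSR2, chromosome 1, position 156009092, 3′ UTR: gggttagagaAgtgcttacta
P4HB, chromosome 17, position 81843440, 3′ UTR: catgcctggaAgaggagctgg
P4HB, chromosome 17, position 81846508, coding exon: gagatgaccaAgtacaagccc
For contrast, the best-supported member site of DDX41-ADARcd that had no edited read in ADARcd alone lies in an A- and G-rich stretch of HSP90B1 on the plus strand and is followed by A.
HSP90B1, chromosome 12, position 103938434, coding exon: gaagaagaagAagaaaagaaa

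Member sites made up 73 of 10407 sites in the list that sets DDX41-ADARcd against ADARcd alone, 66 of 3516 in that of DDX41-ADARcd versus empty vector, and 122 of 6413 in ADARcd alone against the empty vector. Each position on a list was edited in 1 or more reads of the first library and in 0 of 10 or more reads of the second. The median depth of member positions was 165 reads (DDX41-ADARcd) and 288 reads (ADARcd alone) in the first list. It was 203 reads (DDX41-ADARcd) and 29 reads (empty vector) in the second, and 358 reads (ADARcd alone) and 32 reads (empty vector) in the third. An editing level is the share of reads, in percent, that carry the edited base. Its 95% interval is exact (Clopper-Pearson), and a count of 0 is given as the level that 3 reads of the depth would make. Both cover counting error only, because PCR reads without molecular identifiers are not independent molecules. Of 12 monocyte and myeloid marker genes 9 had a listed site, and CD33, CD14 and MPO had none. A listed site was found for 0 of 4 lymphocyte, 0 of 3 erythroid and 0 of 3 epithelial or kidney markers. However, a gene enters the lists only through an edited read, and the lists hold 4245 gene names in all. DDX41 itself had a median of 236 reads (DDX41-ADARcd) and 32 reads (ADARcd alone) over 23 listed positions, a read ratio of 6.93.

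SRP14, which with SRP9 binds the Alu domain of the particle's RNA and slows elongation, had the highest level in coding sequence among member sites. At position 40036482 the level was 3.16% in DDX41-ADARcd (5 of 158 reads, 1.04 to 7.23), 22.2% in ADARcd alone (45 of 203 reads, 16.7 to 28.5) and 0 of 24 reads in the empty vector, which allows up to 12.5%. The intervals of DDX41-ADARcd and ADARcd alone did not overlap, and the interval of ADARcd alone lay above what the empty vector allows. An A-to-G change there alters the amino acid.

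The other strong SRP14 site, at position 40037004, lies 37 bases upstream on the mRNA and in another exon. It had 25 edited of 219 reads in ADARcd alone (11.4%, 7.53 to 16.4), and a change there keeps the amino acid. The empty vector had 0 of 21 reads, which allows 14.3% and does not set the libraries apart. The lists hold no DDX41-ADARcd count for it, so it was not compared between the transduced libraries.

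The remaining SRP14 sites had fewer edited reads. DDX41-ADARcd had 2 of 91 reads (2.20%, 0.267 to 7.71) at position 40036430, where ADARcd alone had 0 of 142, a level of up to 2.11%. It had 1 edited read at each of positions 40036206, 40038287 and 40038368. In ADARcd alone, position 40036371 had 2 edited of 131 reads (1.53%, 0.185 to 5.41) and position 40036999 had 1 of 218.

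SRP9, the partner of SRP14 in the particle, showed no site of comparable strength. Against the empty vector its 3 sites for DDX41-ADARcd and its 4 for ADARcd alone each had 1 edited read, with levels of 0.893% to 0.980% in DDX41-ADARcd and 0.402% to 1.27% in ADARcd alone. None of these positions was the same in both libraries, and 6 of the 7 lay in the long 3′ UTR. The list against ADARcd alone also named 2 intronic SRP9 positions on chromosome 1 with very few reads: 2 of 3 reads were edited at position 225788563 (66.7%, 9.43 to 99.2), against 0 of 10 in ADARcd alone, and 1 of 3 at position 225787015, against 0 of 12. Their high percentages rest on 3 reads each. The annotation names 4 pseudogenes after SRP14, 1 after SRP9 and 2 after PDIA3. Only names made of the gene symbol and P, with or without a number, were searched. Copies under other names were not counted. The sources used here do not give how reads of copies were assigned. Values of these 3 genes, and of any member with other copies, are uncertain to that extent.

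SSR2, the beta subunit of the translocon-associated complex, carried the highest level of the set among sites with 20 or more reads. At position 156009092, 448 bases past the stop codon near the end of the mRNA, the level was 1.30% in DDX41-ADARcd (1 of 77 reads, 0.0329 to 7.02), 47.4% in ADARcd alone (73 of 154 reads, 39.3 to 55.6) and 0 of 16 reads in the empty vector, which allows up to 18.8%. The interval of ADARcd alone lay above that of DDX41-ADARcd and above the level the empty vector allows.

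The rest of SSR2 had low levels. The 6 other SSR2 sites of ADARcd alone ran from 0.331% to 0.837%, among them position 156009114, 22 bases away in the genome, with 1 of 182 reads. The other SSR2 site of DDX41-ADARcd, at position 156009565, had 1 of 134 reads against 0 of 222 in ADARcd alone. All 7 SSR2 adenosines listed for ADARcd alone were followed by G.

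**Figure D1:**
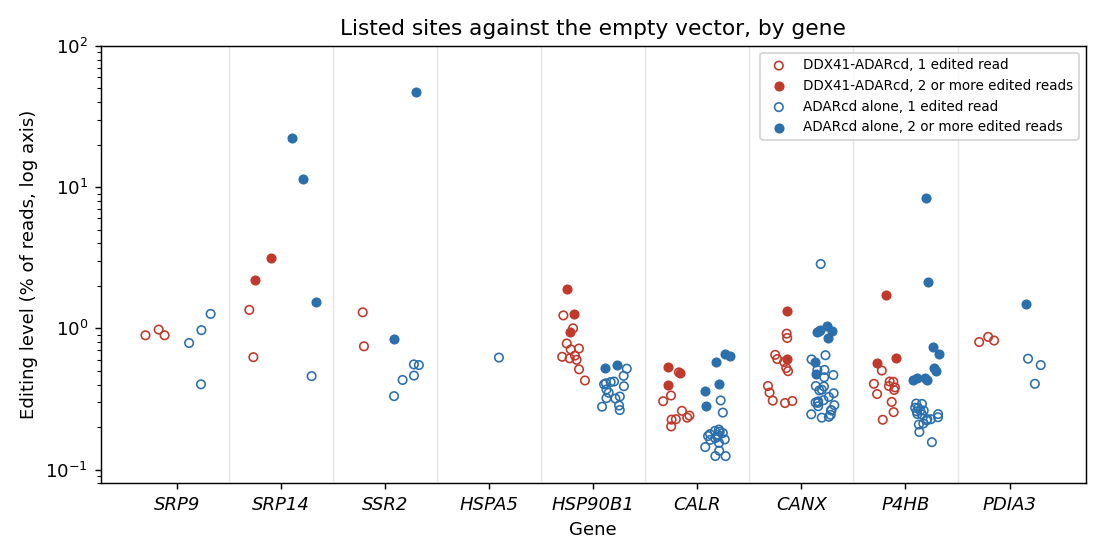
Editing level (percent of reads, log axis) of every member site listed against the empty vector, by gene, for DDX41-ADARcd (red, left) and ADARcd alone (blue, right), with open circles for sites on 1 edited read. SSR2 at 47.4%, SRP14 at 22.2% and 11.4% and P4HB at 8.43% stand above the rest, all in ADARcd alone, and HSPA5 has 1 site in ADARcd alone and none in DDX41-ADARcd.

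P4HB, the classical protein disulfide isomerase and a subunit of prolyl 4-hydroxylase, had 2 of the 5 strong sites. In its 3′ UTR at position 81843440, 572 bases past the stop codon, the level was 1.71% in DDX41-ADARcd (6 of 351 reads, 0.63 to 3.68), 8.43% in ADARcd alone (52 of 617 reads, 6.36 to 10.9) and 0 of 20 reads in the empty vector. The intervals of DDX41-ADARcd and ADARcd alone did not overlap, but the empty vector allows up to 15% and so sets neither level apart from it.

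In the coding sequence of P4HB, position 81846508 had 13 of 612 reads in ADARcd alone (2.12%, 1.14 to 3.61) and 0 of 39 in the empty vector, which allows 7.69%. A change there alters the amino acid. No DDX41-ADARcd count is listed, so the transduced libraries were not compared there. Further P4HB sites of ADARcd alone had 4 of 540 reads (position 81843299, 0.741%) and 3 of 453 reads (position 81847041, 0.662%). The 3′ UTR held 2 of the 14 P4HB sites of DDX41-ADARcd and 14 of the 28 of ADARcd alone, both against the empty vector. Position 81843554 of ADARcd alone was counted as coding because another transcript codes there, although it lies 458 bases past the stop codon used above. Levels of the P4HB sites ran from 0.225% to 1.71% (median 0.398%) in DDX41-ADARcd and from 0.156% to 8.43% (median 0.268%) in ADARcd alone. Of these sites, 11 in DDX41-ADARcd and 18 in ADARcd alone had 1 edited read. Median depths of the P4HB sites were 282 reads (DDX41-ADARcd) and 440 reads (ADARcd alone). The level at a 1-read site is set by its depth, so the 2 medians are not compared.

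PDIA3, the isomerase ERp57 that works with the lectin chaperones on glycoproteins, had 3 sites in DDX41-ADARcd and 4 in ADARcd alone against the empty vector, all coding. Each PDIA3 site of DDX41-ADARcd had 1 edited read, at levels of 0.8% to 0.87%. The best supported of ADARcd alone, at position 43768527 of chromosome 15, had 3 of 203 reads (1.48%, 0.306 to 4.26), against 0 of 23 in the empty vector, which allows 13%.

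**Figure D2:**
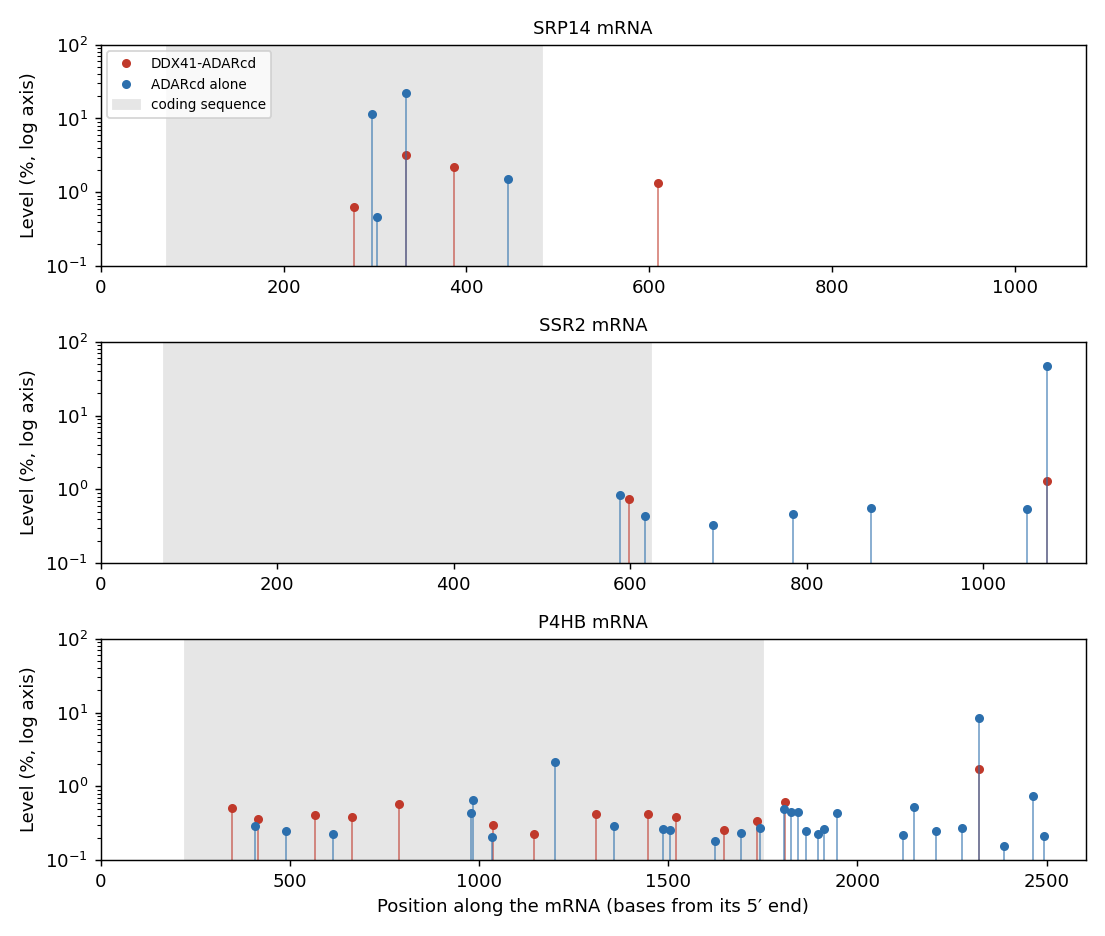
Editing level (percent of reads, log axis) along the SRP14, SSR2 and P4HB mRNAs, in bases from the 5′ end, for sites listed against the empty vector in DDX41-ADARcd (red) and ADARcd alone (blue), with the coding sequence shaded. The tallest sites lie within the coding sequence of SRP14 and in the 3′ UTRs of SSR2 and P4HB, and at each of these 3 positions the point of DDX41-ADARcd (3.16%, 1.30% and 1.71%) is below that of ADARcd alone (22.2%, 47.4% and 8.43%).

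HSP90B1, the ER form of HSP90 that folds integrins and Toll-like receptors, was the member with most edited reads at a position unedited in ADARcd alone. At position 103938434 DDX41-ADARcd had 3 of 159 reads (1.89%, 0.391 to 5.41), ADARcd alone had 0 of 251, which allows 1.20%, and the empty vector had 0 of 28. The interval reaches below that allowance, so the libraries were not set apart at this depth. At 2 edited reads in DDX41-ADARcd stood HSP90B1 positions 103941411 with 2 of 158 (1.27%) and 103943266 with 2 of 214 (0.935%). Against the empty vector HSP90B1 had 14 sites for DDX41-ADARcd (0.427% to 1.89%, median 0.714%) and 17 for ADARcd alone (0.264% to 0.552%, median 0.389%), with no position in common. Of these, 11 in DDX41-ADARcd and 15 in ADARcd alone had 1 edited read. Median depths of the HSP90B1 sites were 158 reads (DDX41-ADARcd) and 286 reads (ADARcd alone). The level at a 1-read site is set by its depth, so the 2 medians are not compared.

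HSPA5, the ER HSP70 known as BiP that binds unfolded chains and holds the stress sensors inactive, had the fewest listed positions per adenosine. Against the empty vector it had 0 sites for DDX41-ADARcd and 1 for ADARcd alone, at 1 of 161 reads, where the empty vector had 12 reads. Against ADARcd alone it had 4 sites with 1 edited read each, of which 2 were in the 5′ UTR and 1, at position 125236265 of chromosome 9, rested on 7 reads. Of the 1109 adenosines in its mRNA 0.451% were listed in any list, the lowest share of the 9 genes, against 7.76% in CALR, the highest, and 7.23% in P4HB. Listing needs an edited read and 10 or more control reads, so this share also depends on depth. Median reads in ADARcd alone and the empty vector were 161 and 12 (HSPA5, 1 position), 564 and 86.5 (CALR), and 440 and 27.5 (P4HB). What part depth has in the share was not tested.

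CALR, calreticulin, the soluble lectin chaperone, and CANX, calnexin, its membrane-bound relative, gave many sites and no strong one. Against the empty vector CALR had 12 sites for DDX41-ADARcd (0.202% to 0.533%) and 24 for ADARcd alone (0.125% to 0.661%). At most 2 reads were edited in DDX41-ADARcd (position 12940439, 2 of 375) and 3 in ADARcd alone (position 12939479, 3 of 454, 0.661%, and position 12940104, 3 of 468, 0.641%), all on chromosome 19. CANX had 14 sites in DDX41-ADARcd and 33 in ADARcd alone, with levels of 0.296% to 1.32% in DDX41-ADARcd and 0.233% to 2.86% in ADARcd alone. The 2.86% is 1 of 35 reads at position 179731135, which lies in no gene of this annotation, and the highest level inside CANX in ADARcd alone was 1.03%. The most edited reads at a CANX site were 2 in DDX41-ADARcd, at positions 179705682 (2 of 151, 1.32%) and 179724767. In ADARcd alone they were 4, at positions 179720448 (4 of 387, 1.03%) and 179724767. Position 179731200, also named CANX in the lists and in no annotated gene, had 1 of 26 reads in DDX41-ADARcd.

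CANX held the only member positions, other than the 3 above, that were listed for both transduced libraries, and they are 10 bases apart on chromosome 5. Position 179724767 had 2 of 329 reads in DDX41-ADARcd (0.608%, 0.0737 to 2.18), 4 of 409 in ADARcd alone (0.978%, 0.267 to 2.49) and 0 of 91 in the empty vector. Position 179724777 had 1 of 327 reads in DDX41-ADARcd (0.306%), 2 of 424 in ADARcd alone (0.472%) and 0 of 95 in the empty vector. The intervals overlapped at both positions.

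**Figure D3:**
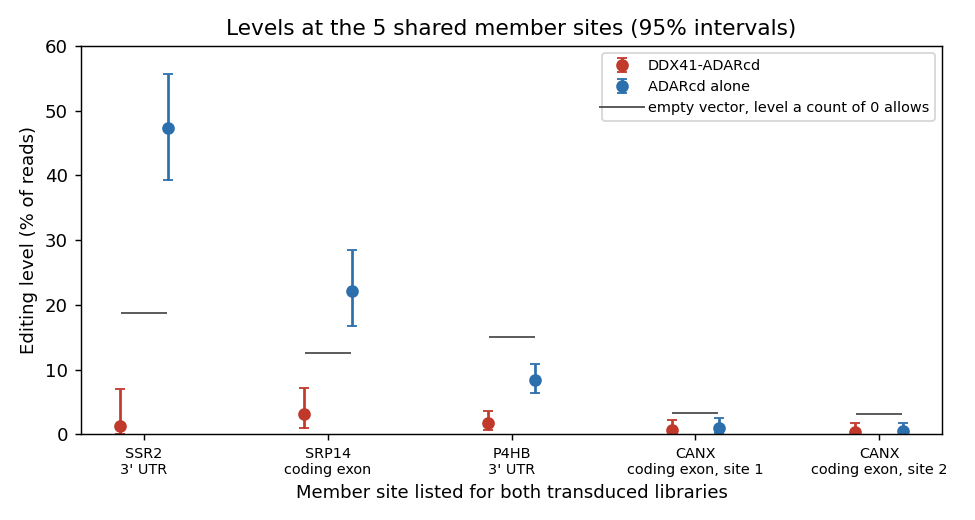
Editing level (percent of reads) with 95% intervals at the 5 member sites listed for both DDX41-ADARcd (red) and ADARcd alone (blue), with a bar for the level that 0 edited reads allow in the empty vector. The intervals are apart for SSR2, SRP14 and P4HB and overlap at both CANX sites.

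Comparing DDX41-ADARcd with ADARcd alone asks which edits depend on the DDX41 part of the fusion. The difference in level was -46.1 points for SSR2, -19 points for SRP14 and -6.72 points for P4HB, and -0.37 and -0.166 points at the CANX positions. A two-sided Fisher's exact test on edited and other reads, Benjamini-Hochberg adjusted over all 9227 testable positions, called those 3 sites of 75 member sites lower in DDX41-ADARcd and 0 higher. Of all positions tested, 0.282% were called lower and 0% higher. Only positions listed for both libraries could come out lower: 5 member positions were among those 400, of which 6.5% were called. Positions of the list against ADARcd alone could only come out higher, and 62 of its 73 member sites had 1 edited read. With so few edited reads the test could hardly call a site higher. For this reason, and since the genes were chosen with these levels known, nothing is read from either count. The same 3 sites were the only members at an unadjusted p under 0.05.

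Read depth at these sites and reads of ADARB1 also differed between the transduced libraries. Total reads in DDX41-ADARcd were 0.5 of those in ADARcd alone at the SSR2 site, 0.778 at the SRP14 site and 0.569 at the P4HB site, and 0.804 and 0.771 of them at the CANX positions. These ratios lay on both sides of the median of all genes, 0.659, and within the range from 0.465 to 0.91 that holds all but the outer 5% of genes on each side. ADARB1, which encodes ADAR2, had over 5 listed positions a median depth of 223 (DDX41-ADARcd) and 909 reads (ADARcd alone), a read ratio of 0.217. What part read depth or ADARB1 reads have in the differences in level was not tested.

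Comparing each transduced library with the empty vector asks where editing appears with the enzyme present. The test called 0 of 66 member sites in DDX41-ADARcd, with 0 at an unadjusted p under 0.05, and 0% of all 3512 sites tested. In ADARcd alone it called 1 of 122 member sites higher, that of SSR2, against 0.203% of all 6412 sites, with 2 member sites (SSR2 and SRP14) at an unadjusted p under 0.05. A lower level was not possible there, since the lists hold only sites unedited in that library, and 0% of sites were called lower. The low depth of the empty vector limits this comparison: it had under 20 reads at 4 of the 7 SSR2 sites of ADARcd alone.

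The same position was seldom listed for both transduced libraries. The 5 shared positions were 7.58% of the 66 member sites of DDX41-ADARcd and 4.10% of the 122 of ADARcd alone. Over all sites, 402 were shared, 11.4% of those of DDX41-ADARcd and 6.27% of those of ADARcd alone. Both lists use the empty vector.

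Most member sites rested on a single edited read. The share was 84.9% (74.6 to 92.2) of the 73 sites of DDX41-ADARcd against ADARcd alone, 80.3% (68.7 to 89.1) of the 66 against the empty vector and 73.8% (65 to 81.3) of the 122 of ADARcd alone. Over all sites of the same lists it was 83.9%, 81.5% and 74.8%. As a measure of other mismatches at the same positions, each base other than A and the edited one made up a mean of 0.0608% (DDX41-ADARcd) and 0.0369% (ADARcd alone) of reads at sites listed against the empty vector. A site enters a list only with an edited read, so the level at a 1-read site is set by its depth and cannot be compared directly with those shares.

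The base after the edited A is given for each list as a description, since the lists share libraries. In DDX41-ADARcd against ADARcd alone 28.6% of member sites (18.4 to 40.6, 20 of 70) were followed by G, in DDX41-ADARcd against the empty vector 34.8% (23.5 to 47.6, 23 of 66), and in ADARcd alone 52.9% (43.6 to 62, 64 of 121). Over all sites of these lists the shares were 37.1%, 36.1% and 40.1%. Of the 6362 adenosines in the 9 mRNAs, 27.4% are followed by G, from 21.4% in SRP9 to 34.2% in P4HB. The intervals count sites of the same gene and library as independent, which they need not be. ADAR enzymes are known to favour a G after the edited base and to disfavour one before it. A preceding G was found at 34.3%, 33.3% and 27.3% of member sites in the same order of lists. Over all sites the shares were 28.5%, 29.8% and 25.4%. It was found at 28.2% of all adenosines of the mRNAs, but this differed by gene, from 20.5% in SRP9 to 36.5% in P4HB and 37.5% in CALR.

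**Figure D4:**
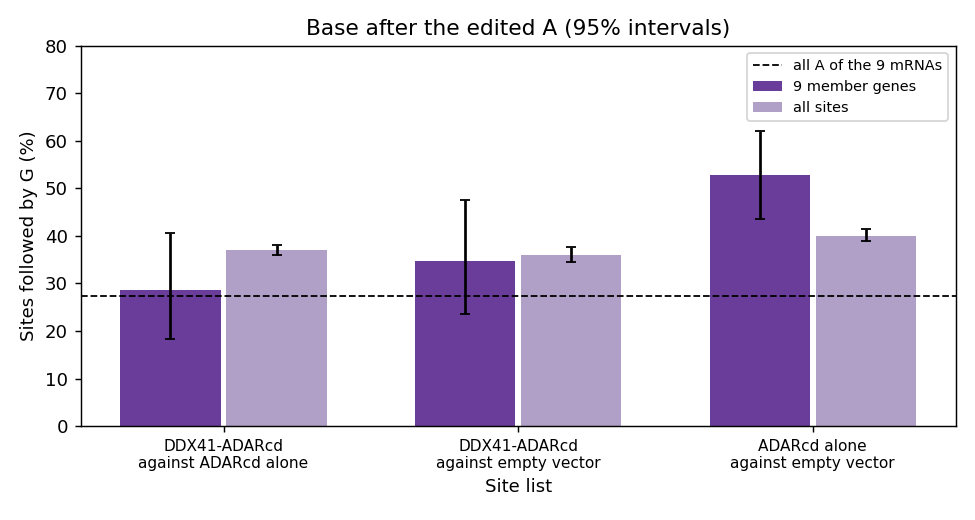
Percent of listed sites whose edited A is followed by G, with 95% intervals, for the 9 member genes (dark bars) and all sites (light bars) in each site list, and a dashed line for all adenosines of the 9 mRNAs. The member bar of ADARcd alone (52.9%) has its whole interval above the dashed line at 27.4%, and the member intervals of both DDX41-ADARcd lists include it. This is a description only: the intervals count sites of the same gene as independent, and the line pools genes that differ in this share.

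Pooled over the lists, the share followed by G was higher among positions with more edited reads. It was 5 of 5 positions with 5 or more edited reads, 20 of 37 with 2 to 4 (54.1%) and 59 of 149 with 1 (39.6%), counting each position once by its highest count in either transduced library. All 5 strongest positions had their highest count in ADARcd alone. With 2 or more edited reads, 30% of member sites were followed by G in DDX41-ADARcd against ADARcd alone (3 of 10, 6.67 to 65.2), where all listed members had 28.6%. Versus the empty vector the shares with 2 or more edited reads were 46.2% for DDX41-ADARcd (6 of 13, 19.2 to 74.9) and 68.8% for ADARcd alone (22 of 32, 50 to 83.9). Over sites of all genes with 2 or more edited reads they were 36.3%, 37.3% and 45.2% in the same order of lists, beside 37.1%, 36.1% and 40.1% over all listed sites. A preceding G was found at 0 of the 5 strongest positions, at 29.7% of those with 2 to 4 edited reads and at 30.9% of those with 1. Coding exons held 3 of the 5 strongest positions and 144 of all 195, and 3′ UTRs held 2 and 45. By list, coding exons held 76.7% of member sites in DDX41-ADARcd against ADARcd alone (58.4% of all sites), and, against the empty vector, 81.8% for DDX41-ADARcd (73.4%) and 72.1% for ADARcd alone (72.7%). Of 143 positions within a reading frame an A-to-G change would alter the amino acid at 102 and keep it at 41.

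Predicted base pairing varied widely among the strongest positions. RNAplfold, with a window of 150 bases, gave the edited A a pairing probability of 0.0101 and 0.0764 at the SRP14 sites 40036482 and 40037004, 0.64 at the SSR2 site, 0.387 at the P4HB site 81843440 and 0.0059 at the P4HB site 81846508. The median of these was 0.0764, and it was 0.325 over all adenosines of the 9 mRNAs. The SSR2 and P4HB 3′ UTR sites thus lay above that median and the coding sites below it.

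Read depth at the members' positions was close to the ratio seen for other genes. The ratio of total reads in DDX41-ADARcd to those in ADARcd alone, as the median over a gene's listed positions, was 0.521 for HSPA5, 0.608 for PDIA3, 0.629 for HSP90B1, 0.666 for CANX, 0.672 for P4HB, 0.7 for CALR and 0.718 for SRP14. The median of all 1165 genes with 3 or more listed positions was 0.659 (5th to 95th percentile 0.465 to 0.91). SRP9 had 0.427 over 6 positions (0.25 to 0.599), the only member of 8 with 3 or more positions past 1.5-fold of that median, where 6.7% of all genes were (3.52% below and 3.18% above). With exon positions only, SRP9 had 0.492 over 4 positions and was within 1.5-fold, as it was with reads summed over positions. Its 2 intronic positions rest on 3 reads each in DDX41-ADARcd. In bulk RNA, fewer cells with a transcript and less RNA per cell cannot be told apart.

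P4HB had the largest read ratios of the members against the empty vector. Its read ratio was 10.4 in DDX41-ADARcd over 14 positions (4.43 to 17.6, median of all genes 5.96) and 16.4 in ADARcd alone over 28 positions (6.49 to 36.7, median of all genes 8.65), 1.75 and 1.9 times those medians. It was the only member past 1.5-fold among those with 3 or more positions, 1 of 7 in DDX41-ADARcd and 1 of 8 in ADARcd alone, where 28% of all genes (16.5% above and 11.6% below) and 24.3% (12.3% above and 12% below) were past it. Members were past it no more often than all genes, so the P4HB ratios are no result about the set. The P4HB ratios rest on 15 to 75 reads of the empty vector per position in the first case and 10 to 74 in the second, and the control library is the same in both. HSPA5, with 1 position, had a ratio of 13.4 in ADARcd alone.

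**Figure D5:**
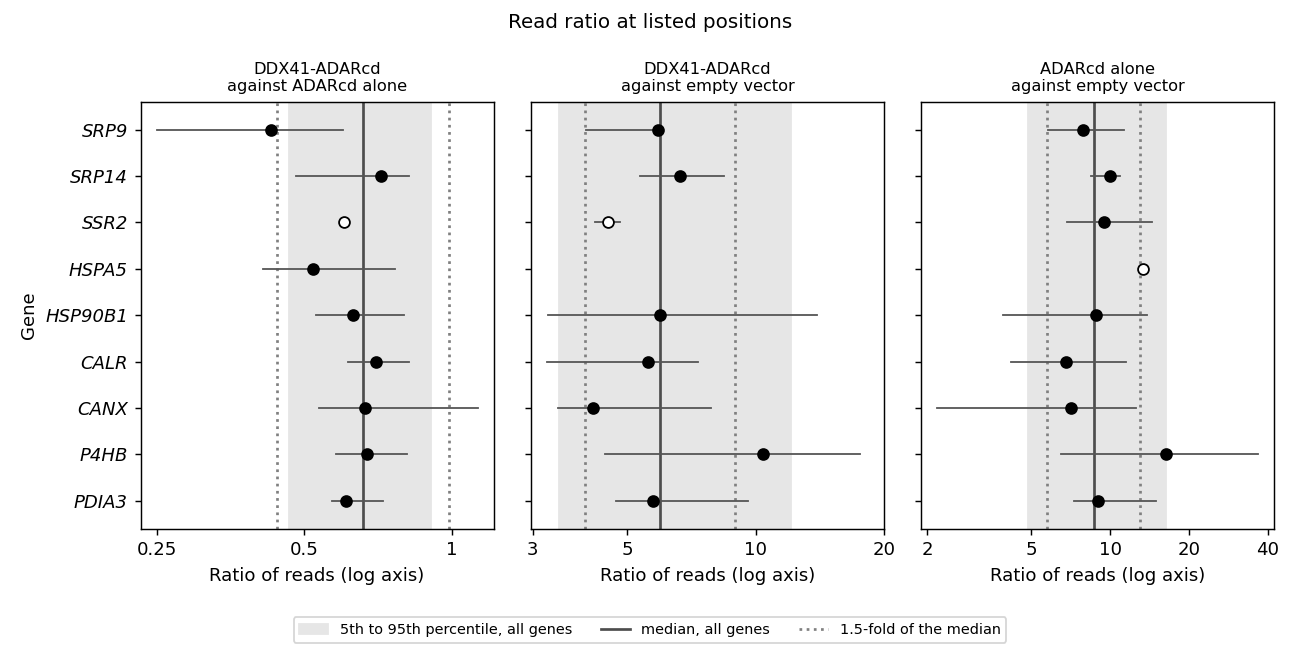
Ratio of total reads at listed positions (log axis) for each gene: the point is the median over its positions, the line runs from lowest to highest, and open points have fewer than 3 positions. P4HB lies to the right of the upper dotted line in both panels against the empty vector and near the median of all genes (0.672 and 0.659) between the transduced libraries.

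Other genes of the pathway, 65 that the annotation names, gave no site that passed the test in any of the 3 comparisons. Listed sites were found in 38 of them (124 sites) in DDX41-ADARcd against ADARcd alone. In the lists against the empty vector they were found in 14 (64 sites) for DDX41-ADARcd and in 21 (110 sites) for ADARcd alone. The site with most edited reads was in RPN2, a subunit of the oligosaccharyltransferase that attaches N-glycans, with 13 of 90 reads in ADARcd alone (14.4%, 7.92 to 23.4) at position 37199142 of chromosome 20. The empty vector had 0 of 10 reads there, which allows 30%.

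RN7SL1 and RN7SL2, the genes of the RNA scaffold on which SRP9 and SRP14 sit, had the deepest reads of the pathway and very low levels. RN7SL2 had 21 sites in DDX41-ADARcd and 20 in ADARcd alone against the empty vector, with at most 3 of 1410 reads for DDX41-ADARcd (0.213%, 0.0439 to 0.621) and 7 of 2729 for ADARcd alone (0.257%, 0.103 to 0.528). RN7SL1 had 10 sites for DDX41-ADARcd and 13 for ADARcd alone, with at most 2 of 2676 reads (0.0747%) in DDX41-ADARcd and 4 of 4342 (0.0921%) in ADARcd alone. Both genes are near-identical copies, so reads could be split between them and their values are uncertain.

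ATF4, the transcription factor of the integrated stress response, had 12 sites for DDX41-ADARcd and 18 for ADARcd alone against the empty vector, and 6 were listed for both. At position 39521929 of chromosome 22 it had 4 of 126 reads in DDX41-ADARcd (3.17%, 0.872 to 7.93) and 1 of 208 in ADARcd alone (0.481%, 0.0122 to 2.65), with overlapping intervals. MAGT1, an oligosaccharyltransferase subunit, and SPCS3, of the signal peptidase that removes signal peptides, had 14 and 9 sites in DDX41-ADARcd against ADARcd alone. The best supported were 3 of 17 reads in MAGT1 (17.6%, 3.8 to 43.4), against 0 of 24 in ADARcd alone, and 2 of 13 in SPCS3 (15.4%, 1.92 to 45.4), against 0 of 18.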

How the data were processed

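The authors deposited counts in 3 lists of edited positions: per the file headers, counts of reads with each base, edited reads and total reads at 1 genome position in 2 libraries, with no normalization. The submitters' processing notes list STAR 2.5, FastQC 0.11.7 and CASAVA 1.4, with mm10, a mouse build. How sites were called, filtered and annotated is not given in the sources used here. Of listed positions with a gene name in GENCODE 29 (human, GRCh38), 99.4% lay inside that gene, and 99.9% of those on a transcript have A there, so positions are given on GRCh38. Since columns carry no library name, the first library of each title was read as the edited one. Totals of the same library were equal at all 402 (empty vector) and 3114 (DDX41-ADARcd) positions shared between lists.

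Rows of 1 position were joined. Fisher's exact test (SciPy 1.17.1) used sites with 10 or more reads in each library. For DDX41-ADARcd against ADARcd alone, positions listed for both against the empty vector were added. The test was also run on simulated counts at the real depths. These lacked the selection of listed positions, so they do not show how the test behaves on the lists. Surroundings, reading frame and pairing (RNAplfold 2.7.2, pairs up to 100 bases apart) came from the principal GENCODE transcript of each gene. Regions were taken over all transcripts of the named gene, with coding exons given priority. The members and gene lists were chosen with earlier results of these data known. The text names every member, sites with 3 or more edited reads or a call, and, of the other pathway genes, those with most sites or most edited reads. Member sites with fewer edited reads were named only in part. The alternatives were other minimums of reads and edited reads, Bonferroni adjustment, reads halved, summed reads, other folds and numbers of positions, levels over edited base and A only, gene membership from the annotation, exon positions only, and a window of 80 bases.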

Additional observations from a re-analysis of the deposited data

How the results depend on the processing

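With 1 library per group, no library could be left out. No paired analysis was possible because each group holds 1 library. The call of SSR2 in ADARcd alone against the empty vector was lost, leaving 0 member sites, with 20 reads in each library, with Bonferroni adjustment and with reads halved. The first of these drops the site itself, which has 16 reads in the empty vector. In DDX41-ADARcd against ADARcd alone the call of P4HB was lost with Bonferroni adjustment and with reads halved. This left 2 member sites (SRP14 and SSR2). Bonferroni adjustment is the stricter of the adjustments used, and halving leaves the test fewer reads. Requiring 2 or more edited reads left 11 member sites listed in DDX41-ADARcd against ADARcd alone. Against the empty vector it left 13 for DDX41-ADARcd and 32 for ADARcd alone. At a fold of 2 in read depth 0 members were past the limit in each of the 3 comparisons, and for DDX41-ADARcd against ADARcd alone 0 were with summed reads and with exon positions only, an alternative chosen after seeing the data. The share of member positions followed by G was 44% over all of them and 59.5% with 2 or more edited reads, also chosen after seeing the data. With a folding window of 80 bases the median pairing probability was 0.139 at the 5 strongest positions and 0.229 over all adenosines of the 9 mRNAs. The levels of the best-supported sites stayed within their intervals in 26 of 26 cases when other bases were left out. Few reads at these sites carried other bases, so this could hardly come out otherwise. The empty vector's depth limits the comparison with it: 0 edited reads there allow 18.8% at the strong SSR2 site, 12.5% and 14.3% at those of SRP14, and 15% and 7.69% at those of P4HB.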
